A study of Mus musculus with 4 samples.

Results

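Of 82 single cells sorted for a Penk-driven red reporter, 40 carried a set of neuroblast markers. The mice were of the Penk-Cre Ai9 line, labelled WT in genotype, in which Cre made under Penk control removes a stop cassette and switches tdTomato on for good, so a reporter-positive cell need not be making Penk RNA at the time of the sort. Cells dissociated from subventricular and striatal tissue were sorted 1 per well into plates. Dataset A held 41 tdTomato-positive cells that were negative for CD11b, a surface protein of microglia, all on 1 plate, and dataset B held 41 tdTomato-positive cells sorted without that gate, on 4 plates. Age, sex and the number of animals were not given in the sources used here, and the labelled neuroblast and quiescent stem cell samples could not be tied to single columns. A neuroblast-marker cell had 10 or more counts in at least 5 of Sox11, Sox4, Ncam1, Stmn1, Dpysl2, Map1b, Crmp1 and Sp8, with Enpp2 under 1% of its counts. Dataset A had 15 such cells (36.6%, exact 95% binomial interval 22.1 to 53.1) and dataset B had 25 (61.0%, 44.5 to 75.8). The other cells were 32 with Enpp2 at 1% or more of counts, called Enpp2-rich here (16 in each dataset), and 10 remaining cells, all in dataset A.

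Neuroblasts of the subventricular zone are young, migrating neurons that arise from neural stem cells of the lateral ventricle wall. In rodents most travel in chains along the rostral migratory stream to the olfactory bulb and become GABAergic interneurons. They are known for transcription factors of the Dlx, Sp and Sox families, for a microtubule and growth cone machinery (Dcx, class III tubulin, stathmins, CRMPs), for polysialylated NCAM on their surface and for receptors that read guidance and chemotactic cues. Choroid plexus epithelium, which lines the same ventricles, is known for Ttr and Enpp2.

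The cells were chosen by their own counts, each dataset is 1 sort gate, and cells are not replicates of it. Whether the 4 plates of dataset B came from more than 1 sort is not given in the sources used here. The differences are therefore given as a description with no test, and intervals cover the counting of cells only. A gene was called detected in a cell when it had 10 or more counts after every cell was thinned to 500000 counts. It was called higher or lower when the share of cells with it differed by at least 50 percentage points. Levels per cell are counts scaled to the total of that cell (CPM), without thinning and not corrected for gene length, so levels are compared between cells and not between genes.

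The values on either side of the rule's limits are given first, as a description of the choice on counts as deposited. In dataset A, 7 marker cells had 7 of the 8 rule genes at 10 or more counts and 8 had all 8. In dataset B, 5 cells had 6, 9 had 7 and 11 had 8, and no marker cell had 5. At the thinned depth used for shares, C3 of dataset A had 4 rule genes detected, below the limit. Just outside lay a cell with 4 rule genes and 2 cells with 3, all in dataset A and with Enpp2 at 0.0320% of counts or less. Cells kept out by Enpp2 alone were E10, with all 8 rule genes and Enpp2 at 3.45%, and F6, with 5 rule genes and Enpp2 at 1.93%. Just inside the Enpp2 limit was cell H6 of dataset A, at 0.999%.

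The summed level of the 8 rule genes set 3 marker cells of dataset A apart from the other 12. H6 had 875 CPM, C3 had 1929 CPM and F7 had 3662 CPM, while the other 12 ran from 19624 to 35774 CPM. These 3 cells overlapped in this level with the remaining cells of dataset A, which reached 4174 CPM, and the other 12 did not. H6 had 78.2% of its 3931861 counts from Ttr and 10 of 23 choroid plexus genes detected. F7, the shallowest marker cell with 530630 counts, had 14 of 27 astroglial genes, 4 choroid plexus genes and 3 microglial genes (Fcer1g, Tyrobp, Ctss). G9, with a rule-gene level of 33466 CPM, had 8 choroid plexus genes. In dataset B the level ran from 10843 to 57976 CPM, with a median of 37197, and the lowest cell, G10 of plate P2, stood below a next value of 27697 CPM. The numbers of genes called, over all genes and for several lists, are also given without H6, C3 and F7, an alternative chosen after the levels were seen.

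Marker cells held 530630 to 3931861 counts in dataset A (median 1726269) and 1235278 to 3339591 in dataset B (median 2135576). At equal depth they had a median of 1096 and 1150 genes detected. The share of counts from mitochondrial genes had a median of 3.63% in dataset A and 2.32% in dataset B, against 7.57% and 4.79% in the Enpp2-rich cells. Its part in the differences was not tested.

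Outside the rule, 57 genes were called higher in the marker cells of both datasets, which is 0.962% of the 5927 genes detected in both. In dataset A, 97 of 7189 genes (1.35%) were called higher and 21 (0.292%) lower. In dataset B, 110 of 8848 (1.24%) were called higher and 179 (2.02%) lower. In both datasets 14 genes (0.236%) were called lower, and no gene was called in opposite directions. Without H6, C3 and F7, 164 genes were called higher in dataset A and 65 in both, 56 of them shared with the 57, and 33 were called lower in dataset A and 22 in both, 11 of them shared with the 14. The plot of the 30 leading genes shows their shares side by side.

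**Figure D1:**
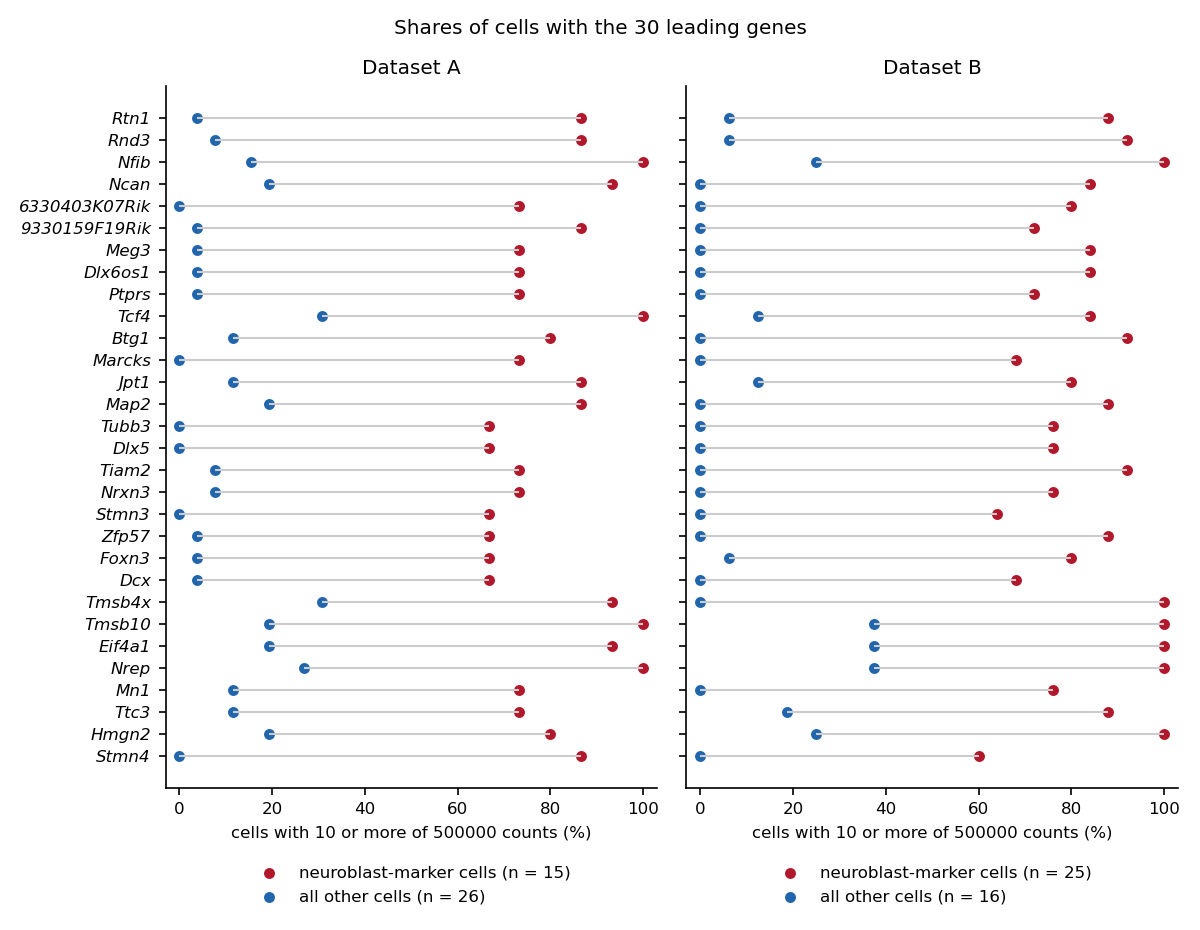
Share of cells (x axis, %) with each of the 30 leading genes (y axis, in order of the smaller of the differences in the datasets), for neuroblast-marker cells (red) and all other cells (blue) in dataset A (left) and dataset B (right). Rtn1 leads with 13 of 15 and 22 of 25 marker cells against 1 of 26 and 1 of 16 other cells.

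Rtn1, a reticulon of the neuronal endoplasmic reticulum, had the largest smaller difference of all genes ranked. It was detected in 13 of 15 marker cells of dataset A (86.7%, 59.5 to 98.3) and 1 of 26 others (3.85%, 0.0973 to 19.6). In dataset B it was detected in 22 of 25 marker cells (88.0%, 68.8 to 97.5) and 1 of 16 others (6.25%, 0.158 to 30.2). Its level in marker cells ran from 0 to 10078 CPM in dataset A (median 1104) and from 0 to 6528 CPM in dataset B (median 1569). The highest other cell had 805 CPM in dataset A and 584 CPM in dataset B, so the ranges overlapped through the few marker cells without the gene.

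Rnd3, an atypical small GTPase that lowers actomyosin contraction and is needed for neuronal migration, was detected in 13 of 15 and 23 of 25 marker cells against 2 of 26 and 1 of 16 others. Its median level was 996 CPM in dataset A and 800.3 CPM in dataset B, and the highest other cell had 113 CPM. Ncan, which encodes the matrix proteoglycan neurocan, was detected in 14 of 15 and 21 of 25 marker cells. Among other cells it was detected in 5 of 26 in dataset A, 4 of these among the 10 remaining cells, and in 0 of 16 in dataset B. Ncan was thus present in the remaining cells and nearly absent from the Enpp2-rich ones, 1 of 16 and 0 of 16.

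Of the 30 leading genes, Nfib, Nrep and Tmsb10 were detected in all 40 marker cells. Nfib, a nuclear factor I transcription factor of neural differentiation, was detected in 15 of 15 and 25 of 25 marker cells, at 72.5 to 9692 CPM in dataset A (median 4329.6) and 23.5 to 18720 CPM in dataset B (median 4832). It was also detected in 4 of 26 and 4 of 16 other cells, all of them Enpp2-rich. Nrep, a small protein of regenerating and young neurons, had medians of 6541 and 10542 CPM and was likewise in all 40 marker cells, against 7 of 26 and 6 of 16 others. Tmsb10, an actin-monomer-binding thymosin, was in all 40 as well, against 5 of 26 and 6 of 16. Tmsb4x, its X-linked relative, was in 14 of 15 and 25 of 25 marker cells, and in 8 of 26 and 0 of 16 others, 7 of the 8 being remaining cells. The highest other cell of dataset A had 31526 CPM of Tmsb4x, above the marker cell maximum of 10101 CPM there.

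The microtubule list held 30 genes, of which 7 were called higher in both datasets. They were Tuba1a, Tubb3, Stmn2, Stmn3, Stmn4, Map2 and Dcx. The same number was called without H6, C3 and F7. Beside this and the later list counts stand the shares of all genes called higher, 0.962% in both datasets, 1.35% in dataset A and 1.24% in dataset B. The median difference over the list was 17.95 points in dataset A and 27.6 in dataset B, beside 2.82 and 1.75 over all genes detected in both. Tubb3, the class III beta tubulin used as a marker of young neurons, was in 10 of 15 (66.7%, 38.4 to 88.2) and 19 of 25 marker cells (76.0%, 54.9 to 90.6). It was in 0 of 26 and 0 of 16 others, which allows shares of up to 13.2% and 20.6%. Its level in marker cells reached 6001 CPM in dataset A (median 401) and 4457 CPM in dataset B (median 1139), and in other cells at most 4.21 CPM. Tuba1a, the main alpha tubulin of young neurons, was in all 40 marker cells and in 3 of 26 and 7 of 16 others. Close tubulin paralogs can share reads, so single tubulin genes are less certain than the group.

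Dcx, which encodes the microtubule-binding protein doublecortin of migrating neurons, was detected in 27 of the 40 marker cells. In dataset A these were 10 of 15 (66.7%, 38.4 to 88.2) against 1 of 26 others (3.85%). In dataset B they were 17 of 25 (68.0%, 46.5 to 85.1) against 0 of 16. Its level ran from 0 to 9350.1 CPM in dataset A (median 452) and from 0 to 3426 CPM in dataset B (median 972). Marker cells were mostly either high or empty, with 8 of 15 at 452 CPM or more, 4 at 0 in dataset A, and 17 of 25 at 355 CPM or more and 8 at 0 in dataset B. By plate, Dcx was in 12 of 12 marker cells of P1, 3 of 6 of P2, 2 of 3 of P3 and 0 of 4 of PL4. The 4 cells of PL4 had 11 to 14 of the 20 other neuroblast markers all the same.

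**Figure D2:**
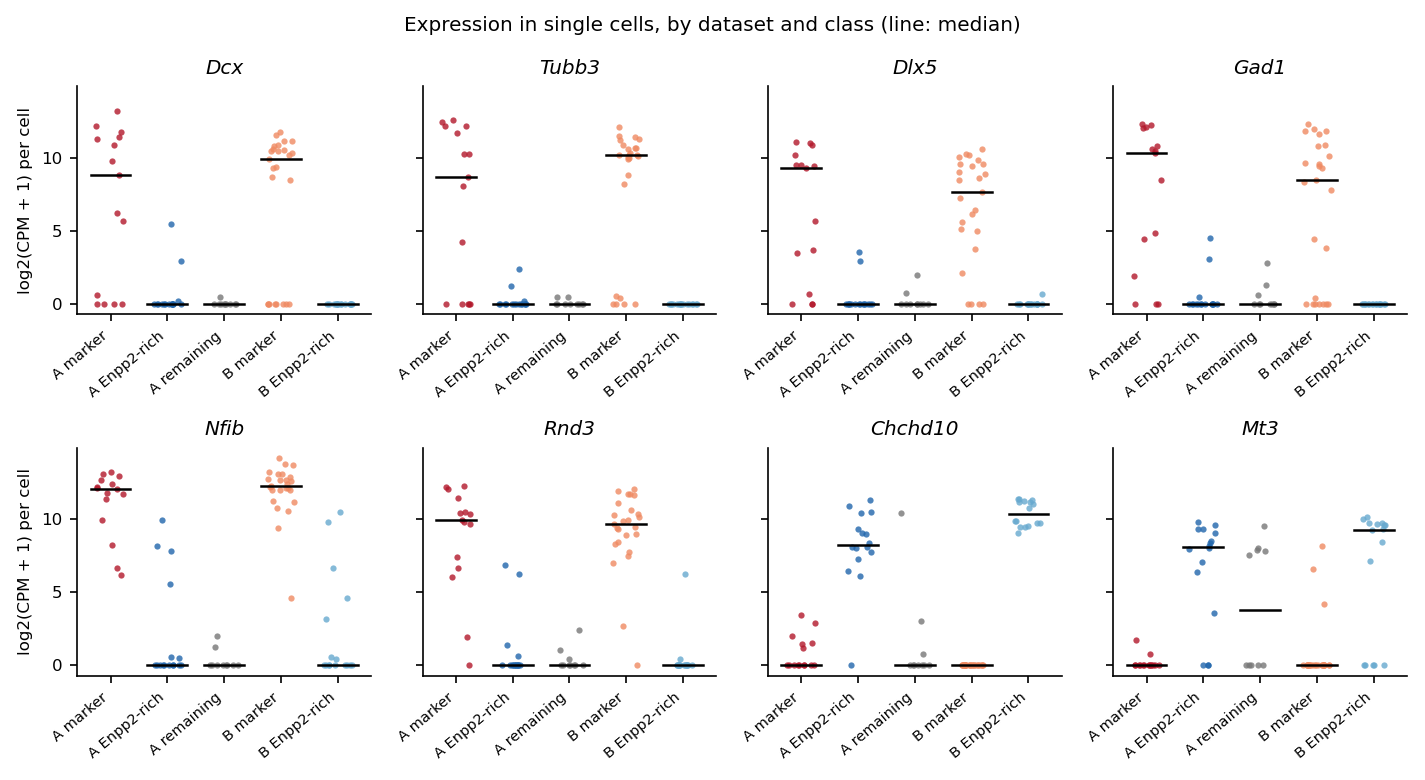
Level of 8 genes in single cells as log2(CPM + 1) (y axis), by dataset and class (x axis; marker, Enpp2-rich and remaining cells), with a line at the median. Dcx, Tubb3, Dlx5 and Gad1 are high in most marker cells and at 0 in others of the same class, Nfib is above 0 in all 40, and Chchd10 and Mt3 show the opposite order.

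Stathmins bind tubulin and regulate microtubule turnover. Stmn4 was in 13 of 15 and 15 of 25 marker cells and in no other cell. Stmn3 was in 10 of 15 and 16 of 25, also in no other cell. Stmn2 was in 9 of 15 and 15 of 25 marker cells against 0 of 42 others, 26 in dataset A and 16 in dataset B. Map2, a microtubule-associated protein of dendrites, was in 13 of 15 and 22 of 25 marker cells, with medians of 117 and 247 CPM, and in 5 of 26 and 0 of 16 others. Not every microtubule gene followed: Tubb4b was in 2 of 15 and 2 of 25 marker cells but 7 of 26 and 9 of 16 others, and Tuba1b in 6 of 15 and 11 of 25 against 6 of 26 and 11 of 16. In dataset B 1 gene of the list, Map1lc3a, was called lower. It was in 0 of 15 and 7 of 25 marker cells against 6 of 26 and 14 of 16 others.

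Of 21 detected genes of the actin, growth cone and CRMP list, 7 were called higher in both datasets, and 7 again without the 3 low cells. They were Dpysl3, Marcks, Tmsb10, Tmsb4x, Gpm6b, Nnat and Tiam2. The list's median difference was 34.1 points in dataset A and 36.0 in dataset B. Marcks, a membrane-bound actin regulator, was in 11 of 15 and 17 of 25 marker cells and in no other cell, with medians of 395 and 1465 CPM. Tiam2, an exchange factor that activates Rac, was in 11 of 15 and 23 of 25 marker cells against 2 of 26 and 0 of 16. Actb was in all 40 marker cells, and also in 23 of 26 and 16 of 16 others. Gap43, a growth cone protein of extending axons, was in 2 of 15 and 6 of 25.

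Transcription factors of the interneuron lineage include the Dlx homeobox genes, which drive GABAergic fate in the ventral forebrain. Of 31 genes of the list, 4 were called higher in both datasets, namely Dlx5, Nfib, Tcf4 and Sp9. In dataset A 4 were called higher, in dataset B 9, and without the 3 low cells 9 in dataset A and 6 in both. The list's median difference was 26.7 points in dataset A and 29.8 in dataset B. No gene of the list was called lower.

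Dlx5 was detected in 10 of 15 (66.7%, 38.4 to 88.2) and 19 of 25 marker cells (76.0%, 54.9 to 90.6) and in none of 26 and 16 others. Its level ran from 0 to 2163 CPM in dataset A (median 639.7) and from 0 to 1564 CPM in dataset B (median 196), and other cells stayed at or below 11 CPM. Dlx1 was in 6 of 15 and 17 of 25 marker cells, Dlx6 in 4 of 15 and 9 of 25, and Dlx2 in 0 of 15 and 8 of 25. At least 1 of the 4 was detected in 13 of 15 and 24 of 25 marker cells, and all 4 in 0 of 15 and 3 of 25. Dlx2 had no count in any cell of dataset A, which fixes the 0 of 15. No other cell of either dataset had any of the 4 detected.

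Dlx6os1, a long noncoding RNA of the Dlx5-Dlx6 locus, was in 11 of 15 and 21 of 25 marker cells against 1 of 26 and 0 of 16, with medians of 692 and 1440.4 CPM. It runs antisense to Dlx6, and whether counting used strand is not given in the sources used here, so reads of that pair cannot be told apart. Sp9, a zinc finger factor of the same lineage as the rule gene Sp8, was in 9 of 15 and 19 of 25 marker cells and in no other cell. Tcf4, a widely used partner of basic helix-loop-helix factors, was in 15 of 15 and 21 of 25 marker cells and in 8 of 26 and 2 of 16 others.

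Other factors were in smaller shares of the marker cells. Meis2 was in 6 of 15 and 12 of 25, and Pax6, a factor of dopaminergic and other bulb interneurons, in 4 of 15 and 3 of 25, each in no other cell. Etv1 was in 6 of 15 and 9 of 25, against 0 of 26 and 1 of 16. Bcl11a was in 7 of 15 and 15 of 25, against 1 of 26 and 0 of 16. Foxp2 was in 2 of 15 and 10 of 25, with no other cell. Nfia was in 13 of 15 and 20 of 25, but also in 10 of 26 and 13 of 16 others, and Nfix in 7 of 15 and 14 of 25. The cell-by-cell map of these factors shows Nfib in every column and most others in scattered columns.

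**Figure D3:**
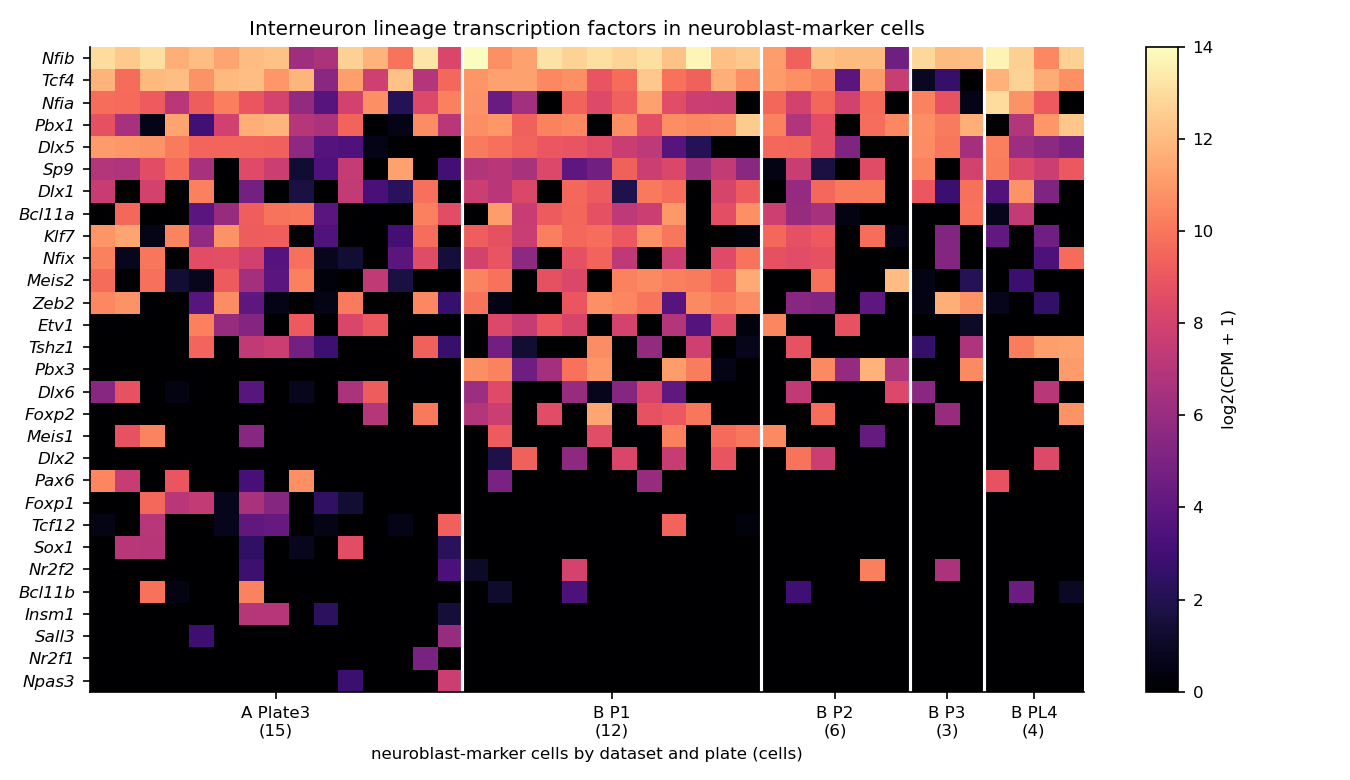
Level as log2(CPM + 1) (colour) of interneuron lineage transcription factors detected in marker cells (rows, by number of marker cells) in the 40 neuroblast-marker cells (columns), grouped by dataset and plate with the number of cells and ordered within a plate by Dlx5. Nfib is present throughout, Pbx3 and Dlx2 are at 0 in the 15 columns of dataset A, and Pax6 is in few columns.

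Promoter windows bear on genes that were detected together, and 43 of the 57 genes called higher in both datasets had one in the RefSeq table used (build GRCm38.p6). Each window holds 250 bases before to 50 after a start, and 4 motifs were searched on both strands, with overlaps allowed. TAATTA, a core bound by many homeodomain proteins, was in a window of 3 of the 43 genes (6.98%), Dcx, Dlx6os1 and Zfp207. The comparison is 245 of 7633 genes (3.21%) that were detected in any cell and had a window, rule genes and Enpp2 left out. By window TAATTA was in 5 of the 68 windows of the 43 genes (7.35%), against 5.29% of all 32851 windows. AACAAT, a core bound by Sox proteins, was in 4 of 43 (9.30%), Fez1, Rtn1, Tiam2 and Zfp57, against 7.39% of genes, and in 8.82% of their windows against 10.7% of all. The GC box GGGCGG was in 26 of 43 (60.5%) against 69.9% of genes, and in 47.1% of their windows against 35.7% of all. The E-box CAGCTG was in 7 of 43 (16.3%) against 17.1% of genes, and in 16.2% of their windows against 16.3% of all. A match is a run of letters and not a shown binding site. Windows of Dlx6os1 (chr6:6869484-6869783, minus strand), Dcx (chrX:143933170-143933469, minus strand) and Rtn1 (chr12:72235697-72235996, minus strand) are printed 5′ to 3′. They are examples from leading genes with a match, with TAATTA or AACAAT in capitals. Tiam2 and Zfp57, also leading genes, had AACAAT. Another window of Dlx6os1 and another of Dcx held TAATTA, and another of Rtn1 held AACAAT on the opposite strand. These windows are not printed.
Dlx6os1: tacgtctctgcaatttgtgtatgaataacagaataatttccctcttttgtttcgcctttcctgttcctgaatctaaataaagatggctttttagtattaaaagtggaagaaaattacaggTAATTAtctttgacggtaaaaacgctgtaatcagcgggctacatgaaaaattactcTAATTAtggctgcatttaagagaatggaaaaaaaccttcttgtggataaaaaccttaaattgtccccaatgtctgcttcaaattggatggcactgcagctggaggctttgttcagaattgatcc
Dcx: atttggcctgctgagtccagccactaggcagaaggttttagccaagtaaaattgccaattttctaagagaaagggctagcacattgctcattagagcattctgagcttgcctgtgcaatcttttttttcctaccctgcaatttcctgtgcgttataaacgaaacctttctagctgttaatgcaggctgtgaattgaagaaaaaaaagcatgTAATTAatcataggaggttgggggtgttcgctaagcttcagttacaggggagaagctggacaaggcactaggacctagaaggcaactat
Rtn1: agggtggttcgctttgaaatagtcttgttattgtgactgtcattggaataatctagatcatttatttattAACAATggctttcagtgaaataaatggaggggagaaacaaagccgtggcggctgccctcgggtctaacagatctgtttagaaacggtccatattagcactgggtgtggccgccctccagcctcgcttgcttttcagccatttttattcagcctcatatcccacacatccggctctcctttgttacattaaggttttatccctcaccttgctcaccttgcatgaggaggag

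Of 11 detected genes of the GABA system, the 2 called higher in both datasets were those of GABA synthesis, Gad1 and Gad2, also without the 3 low cells. The list's median difference was 0 points in dataset A and 4.00 in dataset B. Gad1 was in 11 of 15 and 15 of 25 marker cells against 1 of 26 and 0 of 16, with medians of 1248 and 352 CPM and highest levels of 5041 and 5144 CPM. Gad2 was in 9 of 15 and 14 of 25 marker cells and in no other cell, with medians of 248 and 329 CPM. At least 1 of the pair was detected in 15 of 15 and 21 of 25 marker cells, and both in 5 of 15 and 8 of 25. Gabra2, a GABA receptor subunit, was in 0 of 15 and 1 of 25 marker cells.

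Of 11 listed genes of glutamatergic lineage, 0 had a row in the count table, so their RNA could not be scored. The 15 detected genes of synapses and mature neurons had none called, with median differences of 6.67 and 8 points. Among them Snap25 was in 3 of 15 and 7 of 25 marker cells and Uchl1 in 5 of 15 and 11 of 25. Of 18 detected ion channel genes Gria2, an AMPA receptor subunit, was called higher in both datasets, in 12 of 15 and 13 of 25 marker cells against 7 of 26 and 0 of 16. Without H6, C3 and F7 no ion channel gene was called in dataset A. Among markers of olfactory bulb interneuron subtypes, Synpr was in 5 of 15 and 8 of 25 marker cells, Npy in 1 of 15 and 0 of 25, and Sst in 0 of 15 and 1 of 25.

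Guidance and chemotactic receptors were found in subsets of the marker cells. Of 16 detected genes, 2 were called higher in dataset A, 0 in dataset B, and 1 in dataset A without the 3 low cells. Robo2, a receptor for the repellent Slit proteins that steer neuroblasts, was in 10 of 15 and 10 of 25 marker cells and in no other cell. Plxna4, a semaphorin coreceptor, was in 8 of 15 and 7 of 25, again in no other cell. Prokr2, the receptor for prokineticin 2 that draws neuroblasts to the olfactory bulb, was in 7 of 15 (46.7%, 21.3 to 73.4) and 10 of 25 marker cells (40.0%, 21.1 to 61.3) and in none of 26 and 16 others. Erbb4, a neuregulin receptor of migrating interneurons, was in 0 of 15 and 9 of 25 marker cells.

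Of 25 detected adhesion genes, 1 (Nrxn3) was called higher in both datasets, beside 0.962% of all genes, and 2 were without the 3 low cells. The median difference over the 25 was 0 points in dataset A and 7.5 points in dataset B. Nrxn3, a presynaptic neurexin, was in 11 of 15 and 19 of 25 marker cells against 2 of 26 and 0 of 16. Pcdh9, a protocadherin, was in 9 of 15 and 13 of 25 against 4 of 26 and 0 of 16. Cntn1, the adhesion protein contactin 1, was in no marker cell, against 12 of 26 and 6 of 16 other cells. St8sia2 and St8sia4, the enzymes that add polysialic acid to NCAM, were in 3 of 15 and 7 of 25 and in 1 of 15 and 3 of 25 marker cells. Of 17 detected neuronal RNA-binding protein genes, Celf2 and Celf4, regulators of splicing, were called higher in both datasets, and 3 genes without the 3 low cells. Celf4 was in 8 of 15 and 15 of 25 marker cells and in no other cell. Elavl3 was in 5 of 15 and 16 of 25, and Elavl4 in 6 of 15 and 15 of 25.

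The 20 other neuroblast markers are a list drawn up with earlier results of these data known, so their counts describe the cells and are no independent support for the name. All 20 had positive differences in both datasets, and 14 were called higher in both (15 without the 3 low cells), with medians of 60.4 and 62.8 points. A marker cell had 7 to 19 of the 20 detected in dataset A (median 13) and 8 to 19 in dataset B (median 16). Enpp2-rich cells had 0 to 8 and 0 to 4, and the remaining cells 0 to 3. The highest Enpp2-rich cell, with 8, thus overlapped the lowest marker cells. Dcx or Cd24a, a surface protein used to sort neuroblasts, was detected in 12 of 15 and 22 of 25 marker cells. Igfbpl1, another neuroblast marker, was in 2 of 15 and 6 of 25.

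Of 14 detected proliferation genes, Cdkn1b, a cyclin-dependent kinase inhibitor, was called higher in dataset A, in 11 of 15 marker cells against 4 of 26, and was in 18 of 25 against 8 of 16 in dataset B. Ccnd2, a D-type cyclin, was in 13 of 15 and 24 of 25 marker cells, and in 11 of 26 and 9 of 16 others. At least 1 of the DNA replication genes Mcm2, Mcm3, Mcm5, Mcm6, Pcna and Tyms was detected in 2 of 15 and 4 of 25 marker cells, and 1 cell of dataset B had 5 of them. Mcm2, Mcm3, Mcm5 and Mcm6 were at 0 CPM in every cell of dataset A, so only Pcna and Tyms could score there. Mki67 and Top2a were not analysed here. Of the 6 detected genes of activated stem cells none was called, and Egfr was in 1 of 15 and 0 of 25 marker cells.

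Penk RNA itself was rare in the marker cells of this Penk-driven reporter. It was detected in 3 of 15 marker cells of dataset A (20.0%, 4.33 to 48.1) and 1 of 25 of dataset B (4.00%, 0.101 to 20.4), against 0 of 26 and 1 of 16 others. The 3 cells of dataset A, G11, G8 and G9, had 898, 483 and 412 CPM of Penk, and the cell of dataset B had 117 CPM. Penk is itself in the striatal projection neuron list, so these 3 cells hold at least 1 gene of it by choice. G9 had 5 genes of the list (Penk, Ppp1r1b, Pde10a, Foxp1, Bcl11b), G11 had 4 (Penk, Ppp1r1b, Foxp1, Bcl11b) and G8 had 2 (Penk, Foxp1). Not all of these genes are particular to the 3 cells. Ppp1r1b was in 2 of 15 and 0 of 25 marker cells against 10 of 26 and 9 of 16 others, and stood at 17.4 CPM in G9. Foxp1 was in 5 of 15 and 0 of 25 marker cells, and Pde10a in 3 of 15 and 1 of 25. Bcl11b, a zinc finger factor of striatal projection neurons, stood at 1324 CPM in G9 and 933 CPM in G11 and was detected in no other marker cell. The same 3 cells had Sox11 at 10450.0 to 11780.0 CPM, Sp8 at 3729 to 4131 CPM, Dlx5 at 639.7 to 1879 CPM, Gad1 at 1248 to 1799 CPM and Dcx at 452 to 3489 CPM. G9 was also the cell with 8 choroid plexus genes. Drd1, Drd2, Adora2a and Pdyn, which define mature projection neurons, were detected in no cell of either dataset.

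In the opposite direction, 14 genes were called lower in the marker cells of both datasets (0.236%). These calls depended on depth and on the detection threshold. On unthinned counts 9 of the 14 were kept, with 50 counts as detected 11, and with 1 count 2. Lost on unthinned counts in dataset A were Chchd10 (13.3% of marker cells against 61.5% of others), Kl, Gde1, Dbi and Eno1b. In dataset B all 16 other cells were Enpp2-rich, and in dataset A 16 of 26 were. Against the Enpp2-rich cells alone, 63 genes were called lower in both. Chchd10, a mitochondrial cristae protein, was in 0 of 15 and 0 of 25 marker cells (upper bounds 21.8% and 13.7%), against 16 of 26 and 16 of 16 others. Its level in dataset B was 0 CPM in every marker cell and 522 to 2678 CPM in the others, so the groups did not overlap there. In dataset A marker cells had at most 9.8 CPM, and other cells 0 to 2505 CPM. Of the 16 other cells with it in dataset A, 15 were Enpp2-rich. Mt3, a metallothionein of brain astrocytes, was in 0 of 15 and 2 of 25 marker cells against 17 of 26 and 11 of 16, and 5 of the 17 were remaining cells.

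Prdx5, an antioxidant peroxiredoxin, was in 0 of 15 and 7 of 25 marker cells against 16 of 26 and 14 of 16. Trpm3, an ion channel of choroid plexus, was in 1 of 15 and 0 of 25 against 17 of 26 and 13 of 16, the 1 being H6. Kl, which encodes klotho, was in no marker cell and in 13 of 26 and 10 of 16 others, and Stk39, a kinase regulating ion cotransporters, in none against 13 of 26 and 13 of 16. Both stood at exactly 50 points in dataset A. Dbi, an acyl-CoA-binding protein of glia, was in 2 of 15 and 4 of 25 against 17 of 26 and 16 of 16, the 2 being among the 3 low cells. Fxyd1, a regulator of the sodium pump, was in 3 of 15 and 0 of 25 against 20 of 26 and 15 of 16, and 2 of the 3 were low cells. Ndufb7, a subunit of respiratory complex I, was in 4 of 15 and 9 of 25 against 21 of 26 and 16 of 16. Gde1, a phosphodiesterase, was in 0 of 15 and 1 of 25 against 14 of 26 and 9 of 16. Cd63 and Ctsd, of endosomes and lysosomes, were in 3 and 4 of 15 and in 3 and 5 of 25 marker cells. Ldhb-ps and Eno1b, a pseudogene and an intronless copy of glycolytic genes, were also called lower and share sequence with their parents, so their reads are uncertain. Without H6, C3 and F7, the calls of Ndufb7, Ldhb-ps and Eno1b in dataset A were lost, at 33.3%, 25% and 8.33% of the other 12 marker cells against 80.8%, 73.1% and 57.7% of other cells.

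Marker lists of other cell types give what else the marker cells held. Choroid plexus genes were at 0 detected in 8 of 15 and 22 of 25 marker cells, with at most 10 in dataset A and 1 in dataset B. Their summed share of counts ran from 0 to 79.2% in dataset A (median 0.00252%) and from 0 to 0.146% in dataset B, against medians of 20.8% and 8.27% in Enpp2-rich cells. Ttr was detected in 6 of 15 marker cells of dataset A, 2 of them among the 3 low cells, and in 0 of 25 of dataset B. Of 27 astroglial genes a marker cell had a median of 2.00 and 1.00, with at most 14 and 6. Of the 27, 12 had negative differences in both datasets and 2 (Cpe and Id4) had positive ones. Gfap, the astroglial filament protein, was in 0 of 15 and 1 of 25 marker cells and in no other cell of either dataset. Aqp4, a water channel, was in no marker cell, against 5 of 26 and 0 of 16 others. Apoe, a lipid carrier, was in 8 of 15 and 8 of 25 against 20 of 26 and 14 of 16. Cpe, a carboxypeptidase that processes prohormones, was in 4 of 15 and 7 of 25 against 3 of 26 and 0 of 16. Id2 and Id3, inhibitors of differentiation, were in no marker cell, against 12 of 26 and 7 of 16 and against 7 of 26 and 6 of 16 others. Id4, of the same family, was in 3 of 15 and 2 of 25 marker cells against 1 of 26 and 1 of 16 others.

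Microglial genes were at 0 detected in 14 of 15 marker cells of the CD11b-negative sort and 22 of 25 of the ungated sort. Many genes of the list, such as C1qa, C1qb, C1qc, Tmem119, P2ry12 and Selplg, were at 0 CPM in every cell of dataset A. They could not score there, so these shares are not a like measure of the sorts. Cell A4 of plate P2 had 4 of them, C1qa, P2ry12 and Selplg included. Vascular genes were detected in no marker cell and ependymal genes in 2 of 15 and 0 of 25. Of oligodendrocyte genes, Mog was in 3 of 15 and 7 of 25 marker cells at up to 249 CPM and in no other cell, while Mag was in none. Of 12 detected immediate early and dissociation genes none was called, and Fos was in no marker cell. The part of other cell types' RNA in the shares above was not tested. Over all genes, 0.292% were called lower in dataset A, 2.02% in dataset B and 0.236% in both. Of 23 choroid plexus genes, 2 were called lower in dataset A, 14 in dataset B and 2 in both. Without H6, C3 and F7, 4 were called lower in both. Of 27 astroglial genes, 1 was called lower in dataset A, 5 in dataset B and 1 in both. Without these cells, 2 astroglial genes were called lower in both.

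**Figure D4:**
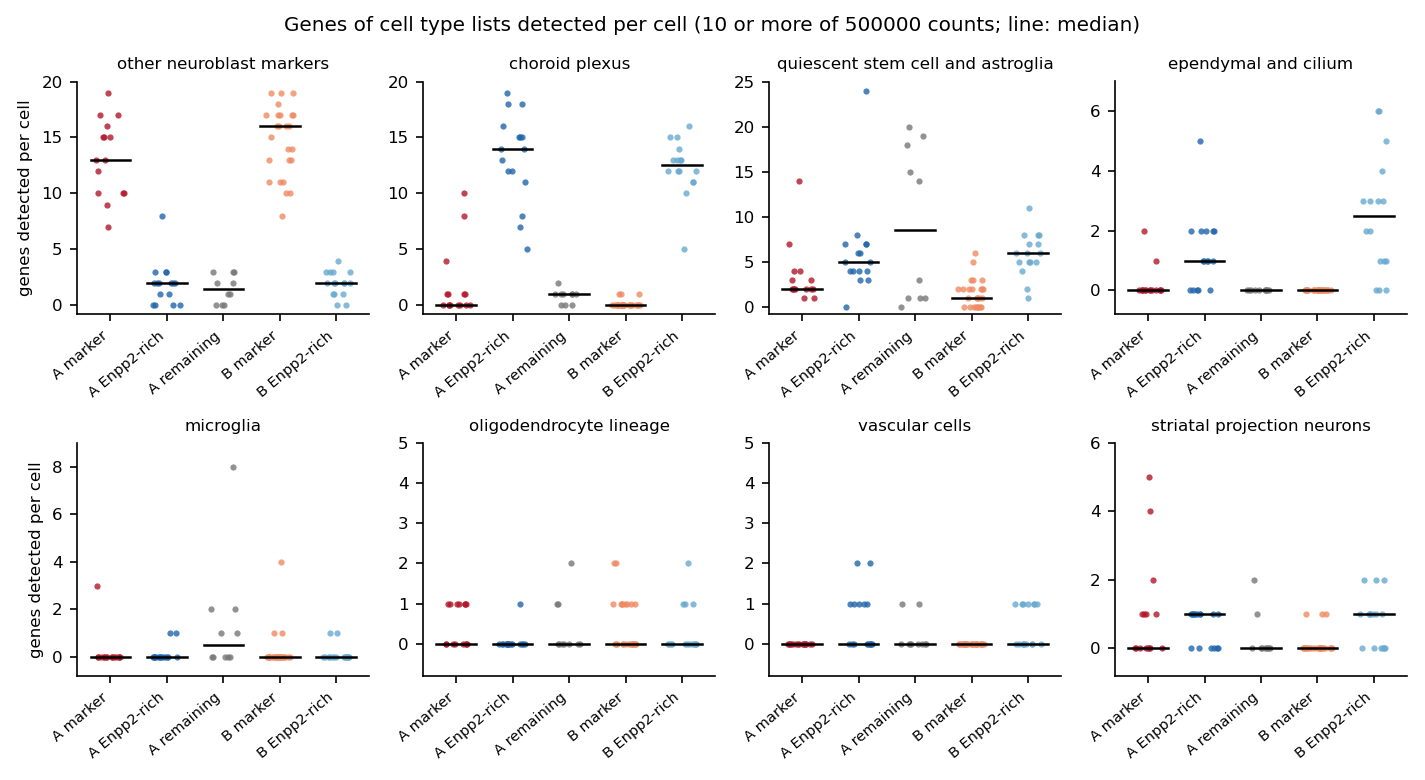
Number of genes of 8 marker lists detected per cell (y axis; each panel has its own scale), by dataset and class (x axis), with a line at the median. Marker cells have 7 to 19 of the other neuroblast markers, choroid plexus genes reach 10 in a marker cell of dataset A and 1 in dataset B, and vascular genes are at 0 in all 40.

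Variation among the 40 cells was ranked only over genes that part of them had, which fixes that the genes named are high in some cells and low in others. By the SD of log2(CPM + 1) over the 40 cells, among 775 genes detected in 25% to 75% of marker cells of each dataset, the widest was Prokr2 (SD 5.52). Its level ran from 0 to 3818 CPM in dataset A and from 0 to 9327 CPM in dataset B, with a median of 0 in both. Pfn2, a neuronal profilin, followed with an SD of 5.34 and medians of 1363 and 1654 CPM. Elavl4, an RNA-binding protein of postmitotic neurons, had an SD of 5.27, a median of 0 in dataset A and 1029 CPM in dataset B. Zfp704 and Inpp5f, in 7 of 15 and 13 of 25 and in 6 of 15 and 14 of 25 marker cells, were in no other cell. Ndrg2, a gene known from astrocytes, was in 10 of 15 and 11 of 25 marker cells and in 15 of 26 and 11 of 16 others. Of the 30 leading genes, a marker cell had 15 to 29 detected in dataset A and 20 to 29 in dataset B, and C3 with 15 and H6 with 16 were the lowest.

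Between the datasets, few genes differed within the marker cells. By 50 points or more, 3 of 8508 genes (0.0353%) were higher in dataset A and 4 (0.047%) in dataset B. Sort gate and plates go with the dataset and cannot be told apart, and which animals gave which cells is not given in the sources used here. Higher in dataset A were Xist (8 of 15 against 0 of 25), Gramd1a, a sterol transporter (11 of 15 against 5 of 25), and Nav1, a neuron navigator (10 of 15 against 4 of 25). Y-linked genes were detected in 1 of 15 marker cells of dataset A and 11 of 25 of dataset B, and no marker cell had both Xist and a Y-linked gene detected. Over all cells, Xist was in 14 of 41 and 0 of 41 and a Y-linked gene in 2 of 41 and 21 of 41.

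Higher in dataset B were Nisch, in 3 of 15 and 20 of 25, the homeobox gene Pbx3, in 0 of 15 and 14 of 25, the Mediator subunit gene Med22, in 0 of 15 and 13 of 25, and the corepressor gene Runx1t1, in 2 of 15 and 16 of 25. Pbx3, Med22, Dlx2 and Erbb4 had no count at all in any of the 41 cells of dataset A, marker cells or others. In dataset B, Pbx3 was in 8 of 12 marker cells of plate P1, 4 of 6 of P2, 1 of 3 of P3 and 1 of 4 of PL4. Med22 was in 8 of 12, 2 of 6, 1 of 3 and 2 of 4. Of the rule genes, Sp8 was in 15 of 15 marker cells of dataset A and 16 of 25 of dataset B. By plate, marker cells made up 12 of 14 cells of P1, 6 of 6 of P2, 3 of 7 of P3 and 4 of 14 of PL4.

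**Figure D5:**
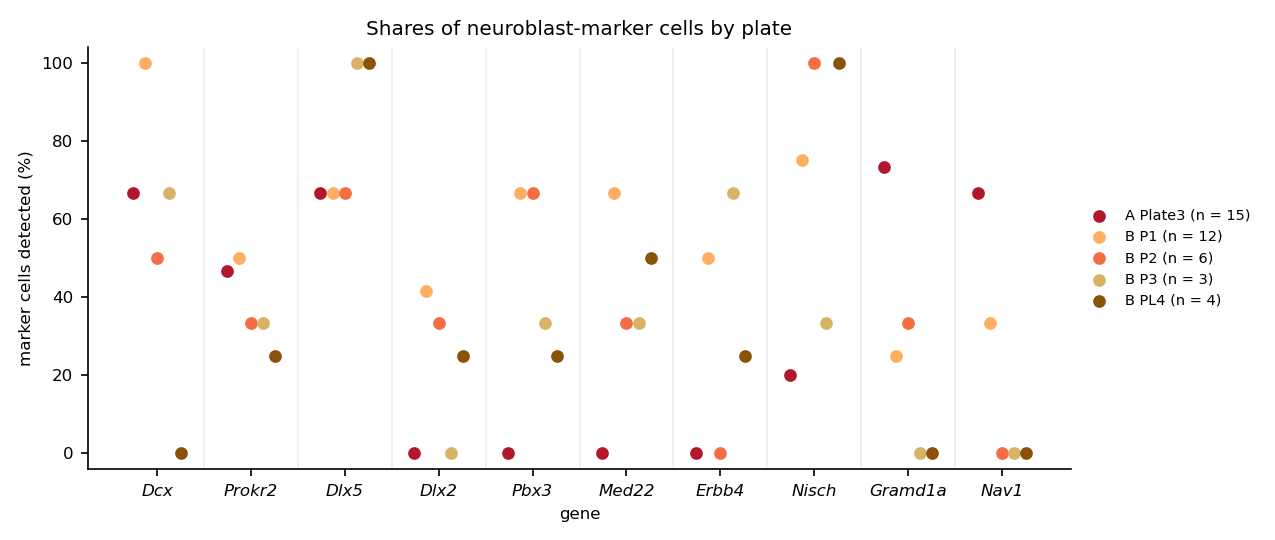
Share of neuroblast-marker cells (y axis, %) with each of 10 genes (x axis), by dataset and plate (colour, with the number of marker cells). Dlx2, Pbx3, Med22 and Erbb4 are at 0 on the plate of dataset A, Dcx is in all 12 cells of P1 and none of 4 of PL4, and Gramd1a and Nav1 are highest on the plate of dataset A.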

How the data were processed

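The deposited values are unnormalized read counts for each gene in each cell, since they are whole numbers with differing totals. FastQC 0.12.1, STAR 2.7.10b, featureCounts and Subread 2.1.1 are named in the submitters' processing notes, with both GRCm39 and mm10 as builds. Which build was counted is not given in the sources used here, so promoter coordinates are those of the RefSeq table. The table held 15305 gene rows, 1997 at 0 throughout, and 82 cells. No cell was left out, and no doublet caller was run. No molecular identifiers are mentioned, so PCR copies count as reads.

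Each cell was thinned without replacement to 500000 counts (seed 1), below the shallowest cell. Named were the 30 genes with the largest smaller-of-datasets difference in share, the 15 most opposite, the 10 most variable and up to 10 per direction between datasets, besides genes of the lists, some of which are not reported here. The members, lists and tests were chosen with earlier results of these data known. The share calculation was tested on simulated data. Intervals are exact binomial (Clopper-Pearson). Tools were Python 3.11.15, numpy 2.4.6, pandas 2.3.3, scipy 1.17.1 and matplotlib 3.10.9. Alternatives covered depth, thresholds, rule, comparison cells and plates.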

Additional observations from a re-analysis of the deposited data

How the results depend on the processing

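Counts are given in the order higher then lower in dataset A, higher then lower in dataset B, and higher then lower in both. With a 25-point threshold they were 679, 231, 491, 699, 252 and 163, and with 75 points 9, 0, 24, 34, 3 and 0. With 4-fold in pooled CPM they were 2214, 2079, 3248, 1700, 996 and 598 at a pseudocount of 1, and 1772, 1450, 2330, 1205, 682 and 386 at 10. Of the 57 genes higher in both, 54 and 51 were among those. With 1 count as detected, lower calls were 9 in dataset A and 6 in both, 2 of them shared with the 14. Against Enpp2-rich cells only they were 115 and 63. Without H6 they were 32 and 23, and without the 3 cells low in the rule genes 33 and 22, with 164 higher in dataset A. Without plate PL4, 415 genes were lower in dataset B, and 77.8% of its cells were marker cells. Other alternatives kept each count of called genes within 1.5 times and the share of marker cells per dataset within its interval. A comparison with remaining cells alone gave no value in dataset B, which had none. Among 160 shares of named genes, 10 moved beyond their interval with 1 count as detected, 6 with 50 counts and 4 without thinning, and 2 of 158 did with Ttr and Enpp2 left out. No paired analysis was possible because each dataset was 1 gate and no test was run. The causes were not tested. With 15 and 25 cells, a share of 0 allows up to 21.8% and 13.7%, and a missing gene in a cell can be a failed capture.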
